A study of Mus musculus with 10 samples.

Results

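The genes described here are Birc6, its fellow inhibitors of apoptosis (IAPs) Birc2, Birc3 and Xiap, the IAP antagonist Diablo, the apoptosome scaffold Apaf1, and the initiator caspases Casp8 and Casp9. They were chosen by their symbol in the array's annotation, and all 8 were found among the 22180 genes that the array reads through at least 1 probe set specific to them. Where a gene had several, the one whose mean signal was highest was read. Of the 8 genes only Birc6 had a second probe set, and both are shown. The samples were hematopoietic stem cells (HSCs) of 18-month-old C57BL/6J mice, 5 labeled AHR-KO and 5 labeled WT. AHR is a ligand-activated transcription factor, and the comparison asks how HSC expression in aged mice differs when it is missing. The AHR-KO mice were Ahr knockout in every tissue, so the marrow around the HSCs lacked AHR as well. The labels do not name the allele. Lineage-depleted marrow was sorted for the SLAM+ fraction and read on Affymetrix Mouse Gene 2.0 ST arrays. The paper describes its sorted cells as LSK, CD34-, CD48- and CD150+, from a stain that included Sca-1 and cKit. Its methods give each animal its own array. Both statements concern arrays other than these. The labels do not say that the 5 arrays of a group came from separate mice, so the p-values measure the spread between these arrays, which may be technical.

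IAPs are proteins with baculoviral IAP repeats, most of which also carry a ubiquitin ligase domain. XIAP binds and blocks the initiator caspase-9 and the executioner caspases directly. The cellular IAPs, cIAP1 (Birc2) and cIAP2 (Birc3), mostly act by attaching ubiquitin to RIPK1 and other proteins at the TNF receptor, which favors NF-kB signaling over caspase-8 activation. BIRC6 is a giant cytoplasmic protein that joins ubiquitin-conjugating and ligase activity and places ubiquitin on caspase-9, DIABLO and HTRA2. In the mitochondrial pathway, cytochrome c released into the cytosol drives APAF1 to assemble the apoptosome, which activates caspase-9, while DIABLO (Smac) leaves the mitochondria and displaces IAPs from caspases. Caspase-8 is the initiator at death receptors.

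The promoters of Birc6 and Birc3 are shown because Birc6 is the gene this set is built around and Birc3 had the lowest unadjusted p of the 8 genes when each is read by its brightest probe set. The sequences are RefSeq's on GRCm38.p6, 5′ to 3′ on the gene's strand, and cover the first 200 bases of a window that runs from 250 bases before the annotated start to 50 bases after it. Capitals mark the AHR core motif GCGTG, or its reverse complement CACGC where it lies on the other strand.
Birc6, chr17:74528045-74528244, plus strand: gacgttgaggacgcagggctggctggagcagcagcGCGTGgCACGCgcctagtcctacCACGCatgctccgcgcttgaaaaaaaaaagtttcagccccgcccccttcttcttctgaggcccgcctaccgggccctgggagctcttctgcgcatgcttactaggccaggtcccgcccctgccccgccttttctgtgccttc
Birc3, chr9:7873221-7873420, minus strand: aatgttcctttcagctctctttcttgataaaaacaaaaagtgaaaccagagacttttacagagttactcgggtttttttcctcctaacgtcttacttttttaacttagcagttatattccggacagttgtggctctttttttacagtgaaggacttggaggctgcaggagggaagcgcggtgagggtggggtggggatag
The Birc6 window held 3 matches, 1 on the plus strand and 2 on the minus strand, all of them within the stretch shown. The Birc3 window held none. All 8 genes matched the promoter table, with 11 windows between them because Birc2 and Xiap have several annotated starts. At least 1 match was found for 5 of the 8 genes, namely Apaf1, Birc2, Birc6, Casp9 and Diablo, and none for Birc3, Casp8 and Xiap. The only Casp8 window began at 58802252, inside a gene annotated from 58795233. Every Xiap window began at 42067586 or later, inside a gene annotated from 42059613. The outermost starts of Casp8 and Xiap were therefore not searched. Of all 32851 windows of this length 32.4% held the motif and 3.91% held 3 or more matches. Of the 27025 genes with a window 35.2% had it in at least 1. A match describes letters only, and no binding was measured. The paper lists Birc6 among genes with putative AHR binding sites, so its matches are not independent of that choice.

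Values below are signals, the deposited linear intensities, or log2(signal + 16), and a fold change is AHR-KO over WT on the latter scale, which understates changes of low genes. The 95th percentile of the mean log2 level of 1105 olfactory receptor genes, 5.50 or a signal of 29.1, served as the range of background, and the mean of each of the 8 genes lay above it. No gene of the 22180 passed an adjusted p of 0.05 in limma (0%, smallest adjusted p 0.998), against 830 at an unadjusted p under 0.05, and the median log2 fold change over all genes was 0.004. The Ahr probe set did not separate the groups, with a log2 level of 5.97 ± 0.52 in AHR-KO and 5.74 ± 0.74 in WT arrays (SD, n = 5 each). It lay in the background range in AHR-KO 2 and WT 5, at log2 levels of 5.17 and 4.70. Which part of the transcript it reads was not analysed here, so the directions below rest on the labels. With all arrays the log2 fold change of Ahr was 0.23, with an unadjusted limma p of 0.517. Within the set of 6 arrays described next it was 0.44, higher in the arrays labeled AHR-KO, with an unadjusted p under 0.05. Within the set of 4 it was -0.09. The arrays also fell into 2 sets along the first principal component, which took 30.6% of the variance: AHR-KO 1 and 2 with WT 1 and 5 (4 arrays), and the other 6. The neutrophil marker score, the mean log2 deviation of 12 neutrophil genes from their means over all arrays, ran from -1.75 to -0.32 in the set of 4 and from -0.06 to 2.08 in the set of 6. Scores of other marker lists also split this way. For monocytes, macrophages and dendritic cells they were -1.08 to -0.22 against 0.06 to 0.61. For marrow stroma they were -0.95 to -0.14 against -0.04 to 0.79. The HSC identity score leaned the other way, at 0.01 to 0.58 in the set of 4 and -0.66 to 0.02 in the set of 6. Of 16 HSC identity markers 14 were measured, all except Fgd5 above the background range. The fold change of all 14 was below 0, with a median of -0.26, no unadjusted p under 0.05 and summed signals of 3068 to 7356 in AHR-KO arrays against 4541 to 7422 in WT arrays. Of the 8 mast cell and basophil markers 6 were below 0, with a median of -0.42 and summed signals of 1153 to 2996 in AHR-KO arrays against 2393 to 4565 in WT arrays. Mcpt8, Cpa3 and Prss34 had log2 fold changes of -1.07, -0.87 and -0.75, each past 1.5-fold and an unadjusted p of 0.05, while Tpsb2 and Cma1 lay in the background range. Of all genes 0.523% passed both limits, in either direction. Of the 8 marrow stroma markers 4 were below 0. Among them were Col1a2 at -0.84, past the same limits, and Col3a1 at -0.36, past the unadjusted p only and in the background range. In 1 of the 8 every AHR-KO array lay below every WT array, while 0.681% of all genes lacked overlap in either direction. Summed signals of the 8 were 387 to 2817 in AHR-KO and 753 to 3739 in WT arrays. Of the 8 measured erythroid markers 7 were above 0, with a median of 0.48, none with an unadjusted p under 0.05, and summed signals of 2361 to 8282 in AHR-KO and 2117 to 6857 in WT arrays. T and NK markers had 7 of 8 measured genes above 0 (median 0.30), and 3 lay in the background range. Their summed signals were 308 to 1955 in AHR-KO and 338 to 1068 in WT arrays. Neutrophil markers had 8 of 12 above 0 (median 0.13), with summed signals of 4258 to 30410 in AHR-KO and 6473 to 16939 in WT arrays. Neither list held an unadjusted p under 0.05. The part of cell composition and of the array sets in the results below was not tested beyond the values given within each set, and in bulk RNA fewer cells of a type cannot be told apart from less RNA per cell.

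Birc6 averaged higher in AHR-KO arrays by both of its probe sets, but only the dimmer of them separated the groups, and neither passed the adjusted p. By the brighter probe set, its signal was 398, 358, 354, 342 and 418 in AHR-KO arrays 1 to 5, against 312, 403, 321, 330 and 264 in WT arrays 1 to 5. The groups overlapped through WT 2, which lay above all AHR-KO arrays except AHR-KO 5, and WT 5 was the lowest of all 10. The log2 level averaged 8.60 ± 0.12 in AHR-KO and 8.41 ± 0.21 in WT arrays (SD, n = 5 each), a log2 fold change of 0.20 (SE 0.12, 95% interval -0.07 to 0.47). The unadjusted limma p was 0.138, and the exact two-sided permutation test gave 0.103. Without WT 2 the log2 fold change was 0.27 and passed an unadjusted p of 0.05.

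By the second probe set, the Birc6 signal was 130, 120, 112, 127 and 121 in AHR-KO arrays 1 to 5, against 92.6, 107, 107, 99.4 and 68.4 in WT arrays 1 to 5. Every AHR-KO array lay above every WT array, which 0.361% of 23521 probe sets did in this direction. The log2 level averaged 7.11 ± 0.07 in AHR-KO and 6.78 ± 0.23 in WT arrays (SD, n = 5 each), a log2 fold change of 0.33 (SE 0.12, 95% interval 0.06 to 0.60). Its unadjusted limma p was 0.0212 and its adjusted p 0.998, and the exact permutation p of 0.00794 is the smallest that this design allows. By neither probe set did the Birc6 fold change reach the 1.5-fold of the paper's methods. Birc6 stands as up-regulated in the study's own list of altered genes drawn with these arrays in view. The paper describes the genes of that list as holding putative AHR binding sites. The list also required a change in AHR-KO mice and in mice lacking AHR in hematopoietic cells only. For the latter the paper also reports altered Birc6 by qPCR. The second probe set was examined after its values were seen. The tests of Birc6 here are therefore not independent evidence of a direction.

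**Figure D1:**
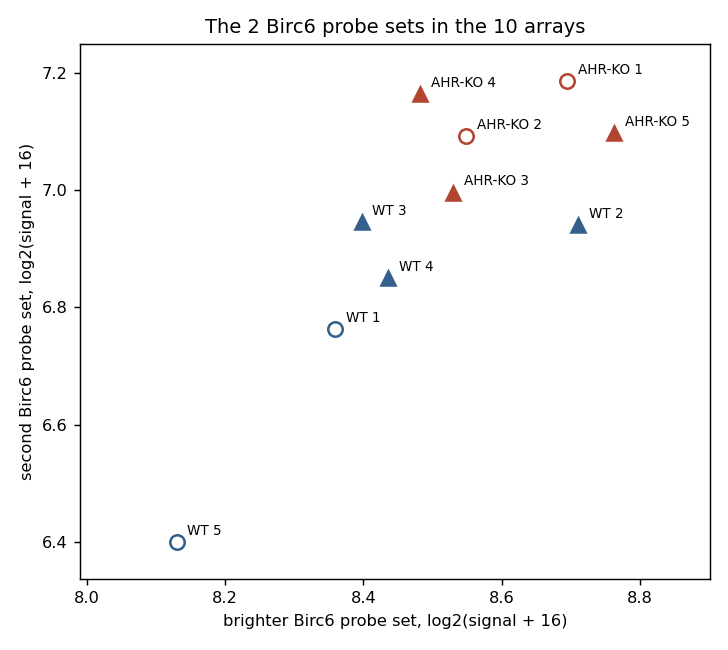
Each point is 1 of the 10 arrays, placed by its log2(signal + 16) in the brighter Birc6 probe set (x axis) and in the second one (y axis), red for AHR-KO and blue for WT, with open circles for the set of 4 arrays and triangles for the set of 6. The AHR-KO arrays all lie above the WT arrays on the y axis and overlap them on the x axis, and WT 5 is lowest on both.

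Over the 10 arrays the 2 Birc6 probe sets had a Pearson r of 0.81, with WT 5 at the low end of both. Without WT 5 the log2 fold change was 0.13 by the brighter probe set and 0.23 by the second, of which only the second kept an unadjusted limma p under 0.05. Within the set of 6 arrays it was 0.08 by the brighter and 0.17 by the second probe set. Within the set of 4 arrays, which holds WT 5, it was 0.38 by the brighter and 0.56 by the second probe set, and in neither set of arrays did either value reach an unadjusted p under 0.05. The sign was thus the same in both sets, and the size was larger in the set of 4.

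The other IAPs did not share one direction. Birc3 (cIAP2) had the largest log2 fold change of the 8 genes at 0.52, or 1.43-fold higher in AHR-KO arrays, Birc2 (cIAP1) was lower and Xiap differed little. Birc2 and Birc3 are neighbors on chromosome 9, at 7818226 to 7837131 and 7847468 to 7873205 in GRCm38.p6, and are close paralogs. By the brightest probe set of each gene, Birc3 alone of the 8 had an unadjusted p under 0.05, and that of the second Birc6 probe set was lower still. Over all genes 1.81% had one with a higher and 1.93% one with a lower AHR-KO level.

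Birc3 signals were 93.7, 116, 146, 144 and 152 in AHR-KO arrays 1 to 5, against 85.6, 118, 116, 90.4 and 39.4 in WT arrays 1 to 5. AHR-KO 3, 4 and 5 lay above all WT arrays, AHR-KO 1 and 2 lay among them, and WT 5 was far below the rest. The log2 level averaged 7.18 ± 0.26 in AHR-KO and 6.66 ± 0.52 in WT arrays (SD, n = 5 each). The fold change had an SE of 0.23, a 95% interval of 0.02 to 1.02, an unadjusted limma p of 0.0441, an adjusted p of 0.998 and an exact permutation p of 0.0476. Leaving out WT 5 brought the log2 fold change to 0.30. The unadjusted p was over 0.05 in that fit and when any of AHR-KO 2, 3, 4 and 5 or WT 1 and 4 was left out. Within the set of 6 arrays the log2 fold change was 0.41, with an unadjusted p under 0.05, and within the set of 4 it was 0.68 and did not pass, so the sign held in both. With all arrays Birc3 did not reach the study threshold of a 1.5-fold change with an unadjusted p under 0.05, which 0.523% of all genes passed, and it did so only when AHR-KO 1, WT 2 or WT 3 was left out, with log2 fold changes of 0.61 to 0.62.

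Birc2 signals were 264, 232, 251, 273 and 250 in AHR-KO arrays 1 to 5, against 373, 282, 261, 287 and 256 in WT arrays 1 to 5. The AHR-KO arrays lay close together, and WT 1, 2 and 4 lay above every one of them. On the log2 scale Birc2 averaged 8.07 ± 0.08 in AHR-KO and 8.25 ± 0.21 in WT arrays (SD, n = 5 each), a log2 fold change of -0.18 (SE 0.12, 95% interval -0.44 to 0.08, exact permutation p = 0.0635). The unadjusted p of limma was also over 0.05.

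Xiap signals were 141, 288, 275, 202 and 208 in AHR-KO arrays 1 to 5, against 161, 223, 214, 241 and 181 in WT arrays 1 to 5. AHR-KO 2 and 3 lay above all WT arrays and AHR-KO 1 lay below them all, so the AHR-KO group spanned the WT range on both sides. Xiap averaged a log2 level of 7.86 ± 0.38 in AHR-KO and 7.77 ± 0.22 in WT arrays (SD, n = 5 each), with a log2 fold change of 0.09 (95% interval -0.31 to 0.50, exact permutation p = 0.651). Changes of up to 1.41-fold in this direction lie inside that interval.

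**Figure D2:**
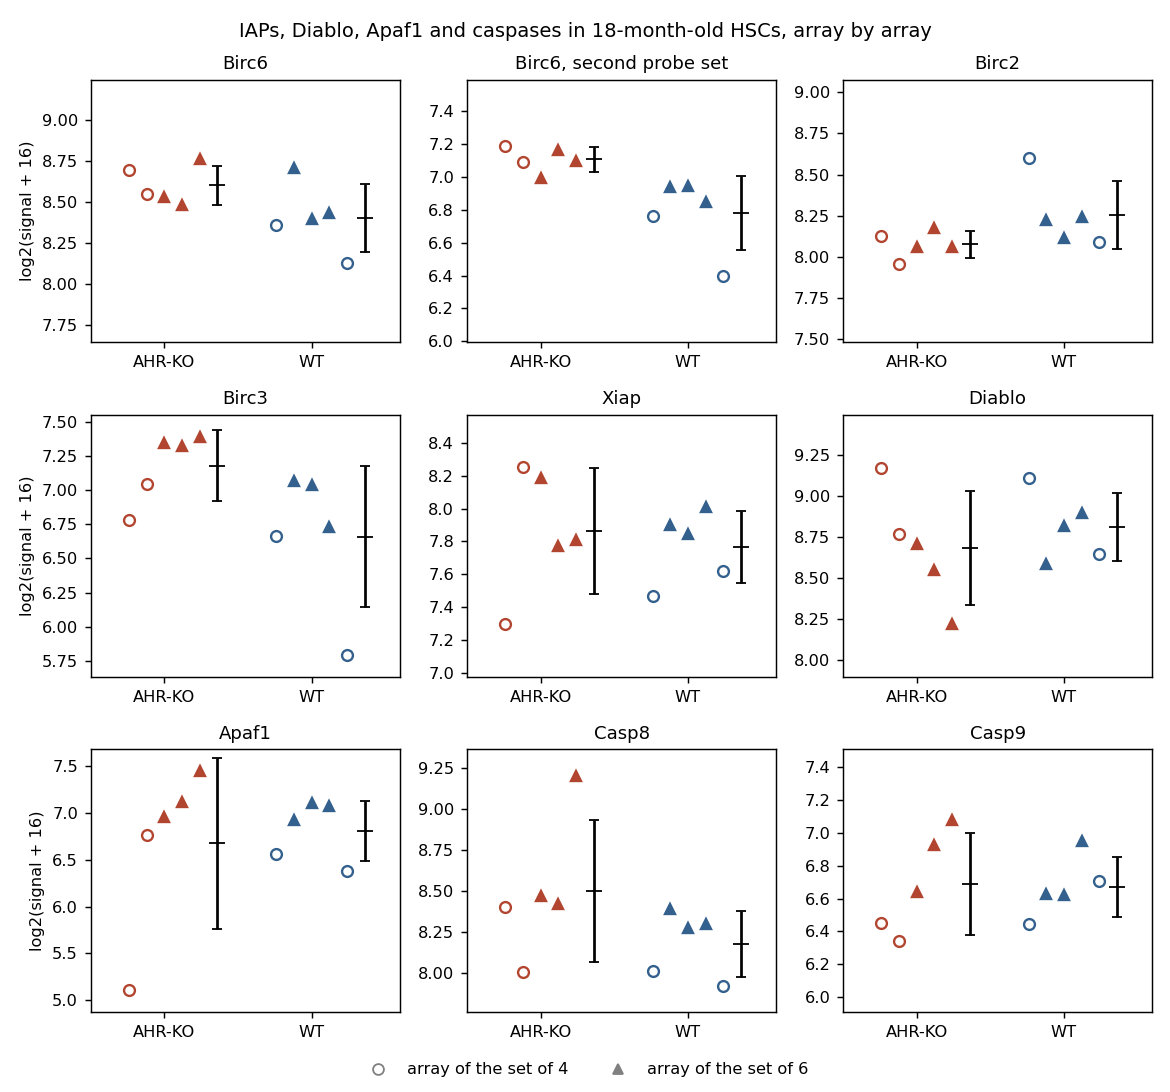
Log2(signal + 16) of the 8 genes and of the second Birc6 probe set in each array, with AHR-KO (red) left of WT (blue), open circles for the set of 4 arrays, triangles for the set of 6, and black bars for the mean ± SD of 5 arrays. The second Birc6 probe set is the only panel without overlap of the groups, WT 5 is low for Birc3, AHR-KO 1 is low for Apaf1 and AHR-KO 5 is high for Casp8.

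On the side that opposes IAPs, Diablo did not differ between the groups beyond its spread. Its signals were 561, 420, 402, 358 and 282 in AHR-KO arrays 1 to 5, against 537, 369, 435, 460 and 385 in WT arrays 1 to 5. AHR-KO 5 and 4 were the lowest of the 10 arrays and AHR-KO 1 the highest. Diablo averaged a log2 level of 8.68 ± 0.35 in AHR-KO and 8.81 ± 0.21 in WT arrays (SD, n = 5 each), a log2 fold change of -0.13 (95% interval -0.50 to 0.25, exact permutation p = 0.50). It was -0.27 within the set of 6 arrays and 0.09 within the set of 4. Another probe set that Diablo shares with B3gnt4 was not used.

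Apaf1, the scaffold of the apoptosome, had the largest SD of the 8 genes, in the AHR-KO group. Its signals were 18.5, 92.5, 108, 123 and 158 in AHR-KO arrays 1 to 5, against 78.0, 105, 121, 118 and 67.3 in WT arrays 1 to 5. AHR-KO 1 lay under the background limit and AHR-KO 5 was the highest of all. Apaf1 averaged a log2 level of 6.68 ± 0.91 in AHR-KO and 6.80 ± 0.32 in WT arrays (SD, n = 5 each), a log2 fold change of -0.13 (95% interval -0.93 to 0.67, exact permutation p = 0.897). Without AHR-KO 1 it turned to 0.26, and within the set of 6 arrays it was 0.14, so no direction is given for Apaf1. The 2 array sets did not overlap, with log2 levels of 5.11 to 6.76 in the set of 4 and 6.92 to 7.44 in the set of 6. The sets were defined from the levels of all genes, Apaf1 included. How many other genes also separate them is not given here, so this is not a trait particular to Apaf1.

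Casp9, the caspase that the apoptosome activates, had nearly equal means in the 2 groups. Its signals were 71.5, 65.0, 83.7, 105 and 119 in AHR-KO arrays 1 to 5, against 71.0, 82.9, 82.3, 108 and 88.3 in WT arrays 1 to 5. The ranges overlapped almost wholly. Casp9 averaged a log2 level of 6.69 ± 0.31 in AHR-KO and 6.67 ± 0.18 in WT arrays (SD, n = 5 each), a log2 fold change of 0.02 (95% interval -0.33 to 0.36, exact permutation p = 0.913).

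Casp8, the initiator at death receptors, was higher in AHR-KO arrays by a log2 value of 0.32, within its spread. Its signals were 322, 241, 338, 327 and 573 in AHR-KO arrays 1 to 5, against 242, 320, 294, 299 and 226 in WT arrays 1 to 5. AHR-KO 5 stood well above all others, AHR-KO 1, 3 and 4 lay slightly above the highest WT array, and AHR-KO 2 was among the lowest. Casp8 averaged a log2 level of 8.50 ± 0.43 in AHR-KO and 8.18 ± 0.20 in WT arrays (SD, n = 5 each; 95% interval of the difference -0.11 to 0.75, exact permutation p = 0.135). Without AHR-KO 5 the log2 fold change was 0.14, and without AHR-KO 2 it was 0.44 and passed an unadjusted p of 0.05.

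**Figure D3:**
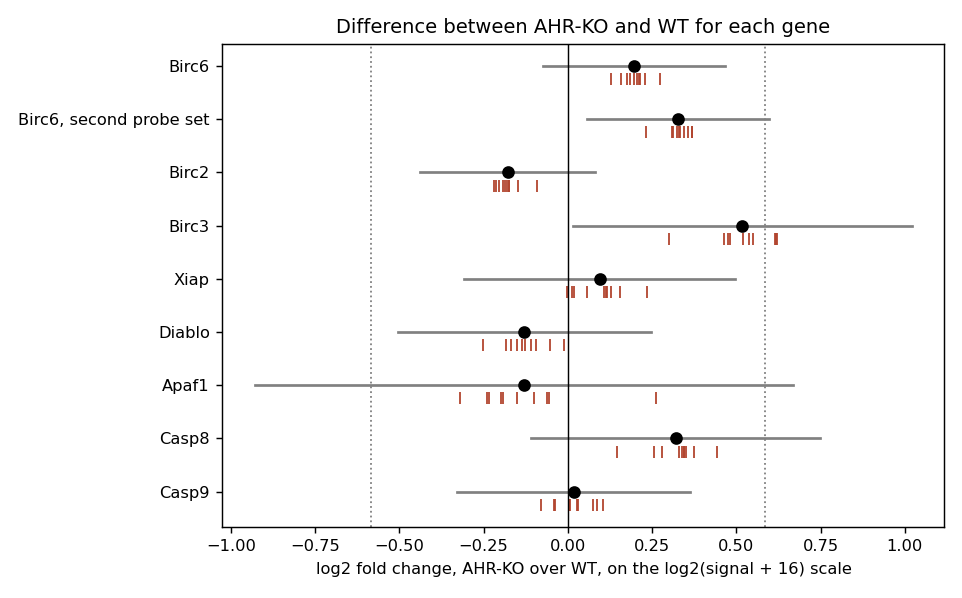
Black points give the log2 fold change of AHR-KO over WT for each gene and for the second Birc6 probe set, gray lines its 95% interval, red ticks the value with each array left out in turn, and dotted lines a 1.5-fold change. The intervals of Birc3 and of the second Birc6 probe set leave out 0, and a tick crosses 0 for Apaf1, Casp9 and Xiap.

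Of the 8 genes 5 had a fold change above 0 and 3 below, with a median log2 fold change of 0.06, and over all genes 51.1% were above 0. None of the 8 separated the groups without overlap by the probe set of highest mean, against 0.681% of all genes. Between the array sets, the set of 4 was lower than the set of 6 on average for Apaf1 (log2 6.20 against 7.10), Birc3 (6.57 against 7.15), Casp8 (8.09 against 8.51), Casp9 (6.48 against 6.81) and Xiap (7.66 against 7.92). Diablo was the other way, at 8.93 in the set of 4 and 8.63 in the set of 6. Birc2 and Birc6 differed least, with 8.19 against 8.14 and 8.43 against 8.55. These are descriptions, since the sets were defined from the same arrays.

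A wider group of 74 genes in 9 apoptosis lists, the 8 genes included, did not lean to one side. Of them 40 had a fold change above 0 and 34 below, the median log2 fold change was 0.02, and none passed the adjusted p or the study threshold. An unadjusted p under 0.05 was reached by 3 genes with higher and 2 with lower AHR-KO levels, 6.76% of the 74 against 3.74% of all genes. The mean level of 10 of the 74 genes lay in the background range.

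Among the 9 measured IAP genes 5 were above 0 and 4 below, with a median of 0.09. Birc5 (survivin), which works at the mitotic spindle, had a log2 fold change of -0.04, and Naip2 and Naip5, which sense bacterial proteins for the inflammasome, had 0.16 and 0.10, while their relative Naip6 had -0.08. Of the 4 IAP antagonists 2 were above and 2 below 0. Htra2, a mitochondrial protease that binds IAPs, had 0.29. Of the 6 apoptosome genes 3 were above and 3 below 0, and Cycs, cytochrome c, had -0.12. The 8 measured caspases had a median of 0.02, with 5 above and 3 below 0. Casp1, the inflammasome caspase, had 0.35, and Casp2 and Casp6 had -0.02 and 0.03. In all 4 of these lists Birc3 was the only gene with an unadjusted p under 0.05.

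Death receptor signaling counted 3 of 11 measured genes above and 8 below 0, with a median of -0.17 and no unadjusted p under 0.05. Cflar, the inhibitor of caspase-8 at the receptor, had -0.22 beside the 0.32 of Casp8. Fas, Fasl and Tnfrsf10b were in the background range. The 3 measured necroptosis genes were all above 0, among them Mlkl with 0.29 and Ripk3 with 0.26, and none had an unadjusted p under 0.05.

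The list of cIAP complexes and linear ubiquitin, the machinery around the TNF receptor, had 11 of 16 measured genes above 0 and a median of 0.14. Tab3, an adaptor that ties the kinase TAK1 to ubiquitin chains, had the lowest unadjusted p of the 74 genes. Its signals were 64.9, 44.7, 53.1, 72.3 and 58.9 in AHR-KO arrays 1 to 5, against 47.9, 46.6, 49.9, 27.2 and 24.6 in WT arrays 1 to 5. All AHR-KO arrays except AHR-KO 2 lay above every WT array, and WT 4 and 5 lay in the background range. The log2 fold change was 0.46 (SE 0.17, unadjusted limma p = 0.0203, adjusted p = 0.998, exact permutation p = 0.0397). Rnf31, the catalytic subunit of the linear ubiquitin ligase, was lower by a log2 fold change of -0.27 (SE 0.12, unadjusted limma p = 0.0478, exact permutation p = 0.0476). Its partners in that ligase, Rbck1 and Sharpin, had -0.24 and -0.11, neither with an unadjusted p under 0.05.

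Caspase substrates and execution genes were split, 6 above and 5 below 0. Acin1, a nuclear caspase substrate that takes part in chromatin condensation, had a log2 fold change of 0.28 (SE 0.11, unadjusted limma p = 0.0267, exact permutation p = 0.0159). Gsdmd, gasdermin D, the pore-forming protein of pyroptosis, was picked out after its values were seen. Its signals were 132, 134, 115, 127 and 75.7 in AHR-KO arrays 1 to 5, against 174, 140, 135, 175 and 807 in WT arrays 1 to 5. The AHR-KO arrays all lay below the WT arrays, by a small gap, and WT 5 was far above the rest. The log2 fold change was -0.84 (SE 0.40, unadjusted limma p = 0.0591, exact permutation p = 0.00794), and -0.39 without WT 5, with an unadjusted limma p of 0.0388. As the mean of its probe sets it was -0.34, which did not pass an unadjusted p of 0.05.

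**Figure D4:**
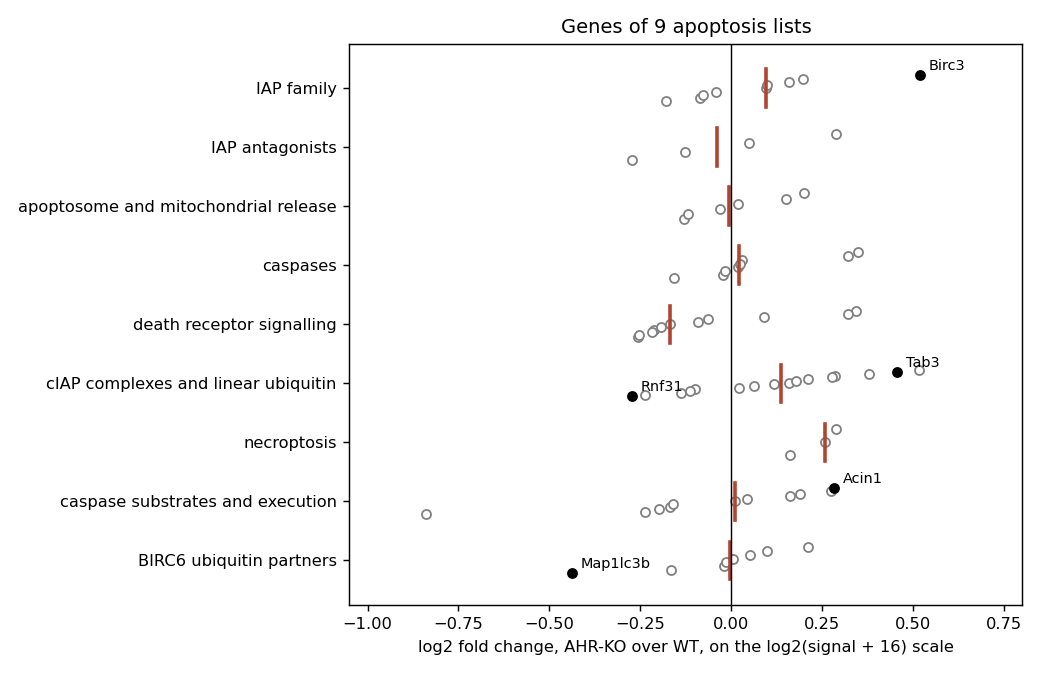
Each point is a gene of an apoptosis list at its log2 fold change of AHR-KO over WT on the log2(signal + 16) scale, black and named where its unadjusted p is under 0.05, and red bars give the median of each list. The medians lie between -0.17 for death receptor signaling and 0.26 for necroptosis, and the open point at the far left is Gsdmd.

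BIRC6 works with the ubiquitin-activating enzyme UBA6 and modifies LC3, a protein of autophagosome membranes. Among 8 such partner and substrate genes 4 were above and 4 below 0, and Uba6 itself had a log2 fold change of 0.005. Map1lc3b, which encodes LC3B, had signals of 554, 765, 500, 644 and 383 in AHR-KO arrays 1 to 5, against 702, 646, 727, 952 and 790 in WT arrays 1 to 5. All AHR-KO arrays except AHR-KO 2 lay below every WT array, AHR-KO 4 by a narrow margin. The log2 fold change was -0.44 (SE 0.18, unadjusted limma p = 0.0303, adjusted p = 0.998, exact permutation p = 0.0476), and it was -0.60 within the set of 6 arrays and -0.19 within the set of 4. None of these 4 list genes kept its unadjusted p under 0.05 in every fit with 1 array left out. For Tab3 it was lost without AHR-KO 4, WT 4 or WT 5, and for Acin1 without AHR-KO 2, AHR-KO 5 or WT 1. For Map1lc3b it was lost without AHR-KO 3, AHR-KO 5, WT 4 or WT 5. For Rnf31 it was lost without AHR-KO 1, 3 or 5 or WT 1, 3 or 4. Over all 22 alternatives run, these left-out arrays included, it was lost in 4 for Tab3, 6 for Map1lc3b, 7 for Acin1 and 12 for Rnf31.

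Over the 10 arrays, the genes whose pattern was most like that of the brighter Birc6 probe set, among 11089 genes above the median level, were Hspa14 (Pearson r 0.94, Spearman rho 0.90), Zfp568 (0.94 and 0.94), Asxl1 (0.91 and 0.88), Iqgap3 (0.91 and 0.96) and Pabpn1 (0.91 and 0.75). With any 1 array left out the r of Hspa14 stayed between 0.88 and 0.96. The arrays share their normalization and the split into sets, and these were picked as the highest of many, so the values are a description. Against the second Birc6 probe set the r of these 5 genes ran from 0.70 for Asxl1 to 0.90 for Zfp568.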

How the data were processed

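The values the authors deposited are linear intensities of 10 arrays with equal quantiles, so a change shared by most genes cannot appear. Affymetrix Expression Console is credited in the submitters' processing notes, its version not given in the sources used here. Methods in the paper name the IterPLIER algorithm and quantile normalization, but do not tie them to these arrays. Precision is limited by the number of arrays. The WT-Ovation PicoSL kit served to amplify the RNA.

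From the intensities log2(signal + 16) was computed. Of 41345 probe sets 23521 had 1 gene symbol, and 1 per gene, the brightest, gave 22180 genes, unfiltered for level. AHR-KO and WT arrays, 5 each, were compared with limma 3.58.1 (lmFit, eBayes) in R 4.3.3, adjusted by Benjamini-Hochberg over all genes. The second Birc6 probe set was fitted among all 23521. Exact permutation tests were two-sided. The fit was tested on simulated data. The rule for named genes took the 8 genes, up to 4 genes per apoptosis list with an unadjusted p under 0.05, the 5 genes most like Birc6, and Ahr. Gsdmd, members named only with a fold change, and the second Birc6 probe set were added after values were seen. The genes and lists were chosen with earlier results of these data known. The alternatives tried were other pseudocounts, a filter on level, the mean of probe sets, a second normalization, a replicate block, the methods' t-test, another variance model, array weights, the array sets as a block or alone, and each array left out.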

Additional observations from a re-analysis of the deposited data

Results flagged for a closer look

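Of 30 sets of 5 values checked for a lone extreme array, 2 were marked by Dixon's test, and both belong to Gsdmd. Chance marks about 1 in 20, but Gsdmd was picked after its values were seen, WT 5 among them, so its marks restate that choice and are not to be read against chance. In AHR-KO 5 its log2 level of 6.52 was the lowest of the AHR-KO arrays, against 7.04 for the nearest. In WT 5 its log2 level of 9.68 was the highest of the WT arrays, against 7.58 for the nearest.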

How the results depend on the processing

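No gene passed the adjusted p under any of the settings run, the smallest being 0.427 without AHR-KO 2. The number of the 8 genes at an unadjusted p under 0.05, 1 in the fit reported, was 0 with a pseudocount of 1, with the replicate number as a block, by the methods' t-test and within the set of 4 arrays. It was 2 with a gene's probe sets averaged and with Birc6 read by its second probe set, the latter setting chosen after seeing the data, and 0 to 2 with each array left out. The number of list genes past the study threshold, 0 in the fit reported, was 1 with a pseudocount of 1 (Tab3), 1 with the array sets as a block (Gsdmd), 2 within the set of 6 arrays (Map1lc3b and Zbp1), 2 within the set of 4 (Dffb and Tnfrsf1a) and 0 to 2 with each array left out, Birc3 and Gsdmd without WT 2 or WT 3. The direction turned for Apaf1 within the set of 6 (0.14), and for Diablo (0.091), Casp9 (-0.18) and Ahr (-0.092) within the set of 4. Ahr had 0.44 within the set of 6, with an unadjusted p under 0.05, higher in the arrays labeled AHR-KO. With each array left out the log2 fold change ran from -0.32 to 0.26 for Apaf1, from -0.0029 to 0.24 for Xiap, from -0.080 to 0.10 for Casp9 and from -0.031 to 0.49 for Ahr. Birc3 kept its sign in all 22 alternatives and lost its unadjusted p under 0.05 in 11. With the replicate block its log2 fold change stayed 0.52 and its unadjusted p was over 0.05. Same-numbered arrays did not clearly deviate together (r from -0.20 to 0.35 over all genes, 1 of 5 highest with its own number). These values cannot show whether the numbers pair the arrays, because the split into array sets enters the same deviations. Among the list genes, a pseudocount of 1 put Rnf31, Acin1 and Map1lc3b over an unadjusted p of 0.05, array weights and the set of 6 did so for Acin1, and the set of 4 for these 3 and Tab3. Rnf31 was also over it with the filter on level, the replicate block, the intensity trend and the array sets as a block. The second Birc6 probe set kept its sign in all 21 alternatives and lost its unadjusted p under 0.05 with an intensity trend and robust spread, with array weights and within either array set. The causes were not tested.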
